A study of Mus musculus with 6 samples.

Results

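The 39 genes described here encode the working parts of the lysosome. They comprise 15 acid hydrolases, 4 soluble cofactors, 9 membrane proteins, 8 subunits of the proton pump and the 3 transcription factors Mitf, Tfeb and Tfe3. They were taken by symbol from a list of lysosomal enzymes, membrane proteins, pump subunits and regulators, without use of a measured value in the choice rule. The list itself was drawn up with earlier results of these data known. All 39 were among the 23337 genes of the count table, and 38 of them passed the filter on low counts, as 12174 of the 18580 genes with at least 1 count did.

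The study sequenced polyadenylated RNA of mouse leukemia described as neonatal, in a series on MLL-rearranged leukemia (leukemia that carries a rearrangement of the MLL gene). Of 6 libraries, 3 came from leukemia treated with CCL5, a chemokine that recruits leukocytes, and 3 from leukemia under control conditions. In the ccl5 group, replicate 1 was labelled as a tertiary transplant and replicates 2 and 3 as primary transplants. The prefixes of their titles differ along the same split. Replicate numbers of this group follow the order of the deposited samples, because its titles end in a letter without a replicate number. In the control group, replicate 3 was labelled as a primary transplant, and the labels gave no transplant for replicates 1 and 2. Strain, host age, the dose and duration of CCL5 and the fusion partner of MLL were not given in the sources used here. Beyond the transplant, nothing in the labels says that the libraries of a group came from separate animals or cultures. The p-values below therefore measure the spread between these libraries only. In the ccl5 group this spread takes in libraries with and without reads of Y-linked genes, described below, so it is not technical alone. Between closely similar libraries it may be technical.

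Lysosomes are membrane-bound compartments in which acid hydrolases break down proteins, lipids, glycans and nucleic acids delivered by endocytosis, phagocytosis and autophagy. A proton pump, the V-ATPase, keeps them acid, and heavily glycosylated membrane proteins such as LAMP1 line them. Many of these genes carry a short palindromic element in their promoters that is bound by the MiT/TFE transcription factors, which enter the nucleus when the kinase complex mTORC1 at the lysosomal surface is inactive. In the myeloid lineage, macrophages are known for a large lysosomal compartment, while neutrophils keep much of their hydrolase content in granules.

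Total counts were 13421100 to 18445095 per library. The libraries fell into 3 closely similar pairs by their levels of all tested genes on a log2 scale. Pearson's r was 0.993 between ccl5 replicates 1 and 3, 0.995 between ccl5 replicate 2 and control replicate 3, and 0.995 between control replicates 1 and 2, against 0.826 to 0.887 for the 5 other pairs that were compared. In ccl5 replicates 1 and 3, 4 Y-linked genes had 0 counts and Xist, the X-inactivation RNA, had 29408 and 25725 counts. In the other 4 libraries the same Y-linked genes summed to 5103 to 7777 counts and Xist had 3 to 77. The library labelled ccl5 replicate 3 shares its source name prefix with ccl5 replicate 2 and control replicate 3 but not their Y-linked reads, so its label is in doubt, and the values below for primary transplants rest on it. No control library lacked Y-linked reads, so for ccl5 replicates 1 and 3 the treatment and a different origin of the cells cannot be told apart. The blood-cell gene Ptprc measured 522 to 783 CPM in every library. Hoxa9, a gene kept active by MLL fusions, measured 90.7, 101 and 81.9 CPM with CCL5, against 192, 178 and 108 CPM in the controls, lower in all 3 ccl5 libraries than in any control (log2 fold change -0.804, SE 0.25; adjusted p 0.365 by edgeR).

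Levels of most lysosome genes were far higher in ccl5 replicates 1 and 3 than in the other 4 libraries, and ccl5 replicate 2 was close to the controls. Levels are given as CPM (counts scaled to a common library size) on library sizes scaled by TMM, a trimmed mean of ratios between libraries. The 38 genes together summed to 62662, 9961 and 60184 CPM in ccl5 replicates 1 to 3, against 11083, 11153 and 9808 CPM in control replicates 1 to 3. Gpnmb and Psap made up 39051, 2356 and 35922 CPM of this with CCL5, against 2694, 2737 and 2257 CPM in the controls. The other 36 genes still summed to 23611, 7604 and 24262 CPM with CCL5, against 8389, 8416 and 7551 CPM in the controls. These are bulk samples, in which fewer cells of a type and less RNA per cell cannot be told apart.

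**Figure D1:**
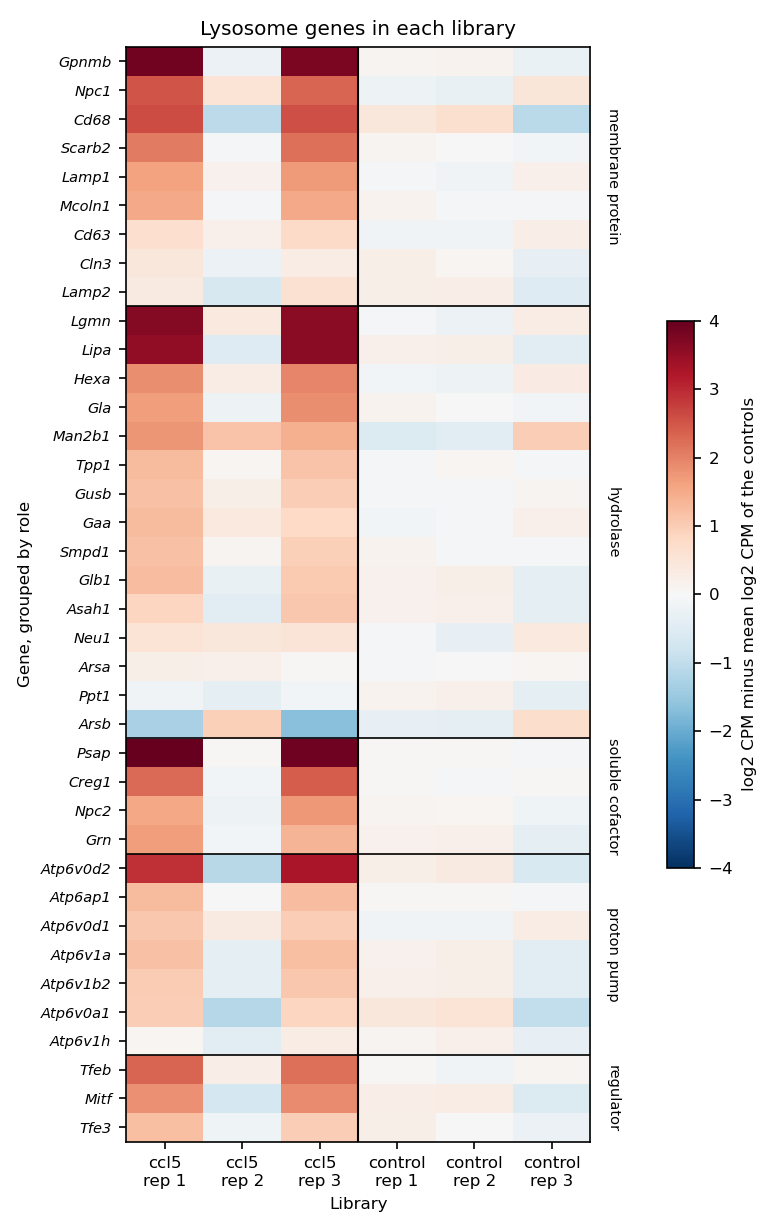
Heat map of 38 lysosome genes (rows, grouped by role) in the 6 libraries (columns), coloured by log2 CPM minus the mean log2 CPM of the 3 controls. The columns of ccl5 replicates 1 and 3 are red for most genes, while ccl5 replicate 2 looks like control replicate 3.

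Over all 6 libraries, 0 of the 38 genes passed the threshold of 0.05 in edgeR's quasi-likelihood test with Benjamini-Hochberg adjustment over 12174 genes, and the smallest adjusted p among them was 0.365. Nor did any other gene pass, so the share of all tested genes called was 0% higher and 0% lower with CCL5. At an unadjusted p under 0.05, 21 of the 38 were higher and 0 lower with CCL5, against 8.99% higher (1095) and 4.67% lower (568) of all tested genes. DESeq2's Wald test called 5 of them higher, namely Gpnmb, Psap, Npc1, Lipa and Lgmn (adjusted p 0.0166 to 0.0479), against 0.864% of all genes higher and 0.61% lower. Limma-voom with quality weights called 32 higher and 2 lower, but also 33% of all genes higher and 33.5% lower. The fold change, ccl5 over control, was positive for 36 of 38 genes, beside 49% of all tested genes. With plain library size, which moved the median of all genes to -0.17, it was positive for 32, since Lamp2, Arsa, Cln3 and Atp6v1h turned below 0. Its median was 0.93 on the log2 scale, beside -0.01 over all tested genes.

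In 8 of the 38 genes all 3 ccl5 libraries lay above all 3 controls, and in 0 they lay below. Over all tested genes these shares were 8.27% higher (1007) and 7.49% lower (912). The 8 genes were Gaa, Gusb, Npc1, Man2b1, Neu1, Lgmn, Atp6v0d1 and Tfeb. In each, the gap was that between ccl5 replicate 2 and control replicate 3. It was narrow, with ratios from 1.03 for Atp6v0d1 to 1.14 for Man2b1. In most of the other 30, ccl5 replicates 1 and 3 lay above the controls and ccl5 replicate 2 within or below the control range.

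Without ccl5 replicate 2, the same edgeR test called 29 of the 38 genes higher and 0 lower, and their median log2 fold change was 1.23. That fit also called 14.3% of all 12581 tested genes higher and 11.9% lower. In it 34 of the 38 lay above all controls and 1 below, against 31.8% and 31.4% of all genes. The 9 genes that were not called were Lamp2, Ppt1, Man2b1, Arsa, Arsb, Neu1, Cln3, Atp6v0a1 and Atp6v1h. In this fit ccl5 replicates 1 and 3, which lacked Y-linked reads, stood against 3 controls that had them.

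**Figure D2:**
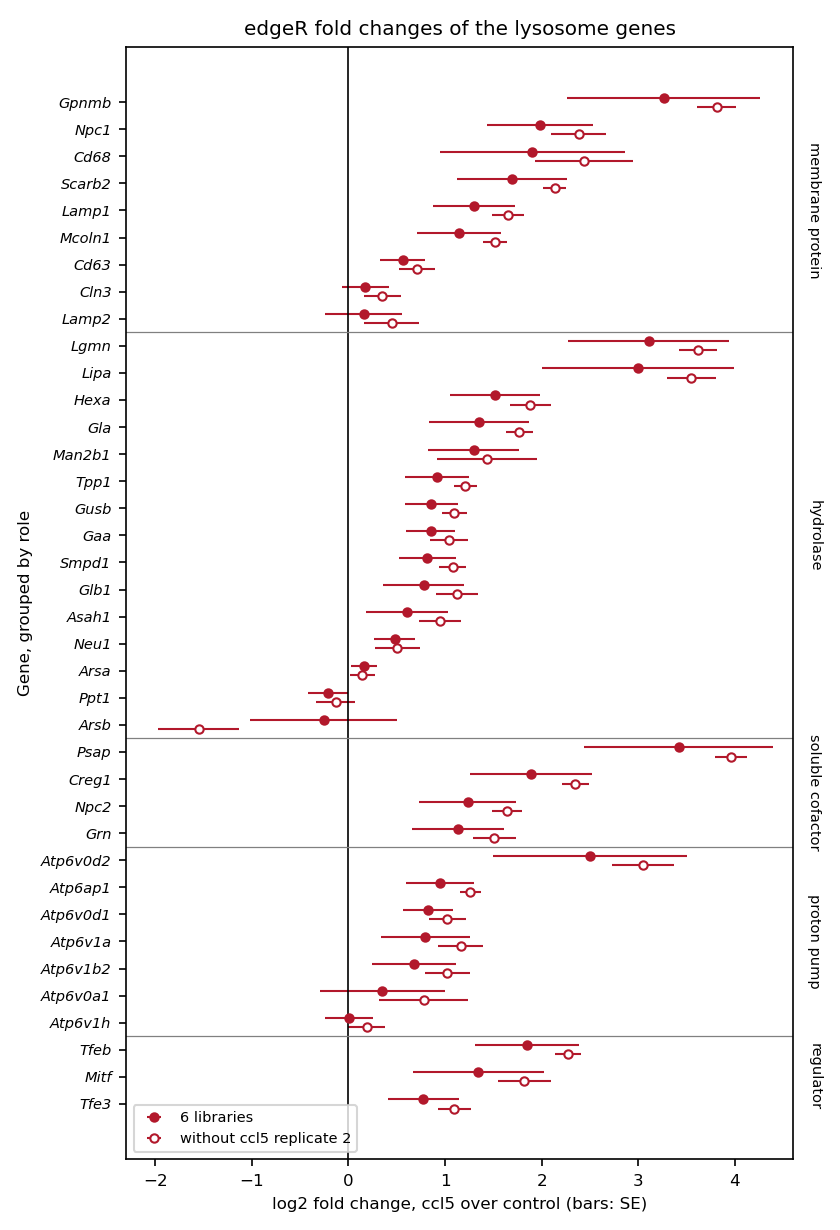
Log2 fold changes of the 38 genes, ccl5 over control, from edgeR with SE as bars. Filled points use all 6 libraries and open points leave out ccl5 replicate 2. The open points lie further from 0 with shorter bars for most genes, and Arsb is the gene furthest below 0 in both.

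Among the regulators, Tfeb, a main activator of lysosome genes, measured 64.2, 15.2 and 59.4 CPM in ccl5 replicates 1 to 3, against 13.1, 11.5 and 13.8 CPM in replicates 1 to 3 of the controls (log2 fold change 1.85, SE 0.54; adjusted p 0.365 by edgeR). All 3 ccl5 libraries were above all controls, though replicate 2 by little. Mitf, its relative known from melanocytes and osteoclasts, measured 62.2, 10.7 and 65.6 CPM with CCL5, against 20.99, 21.4 and 12.05 CPM in the controls (log2 fold change 1.35, SE 0.67). Tfe3, the third factor of the family measured here, had 86.2, 33.3 and 74.5 CPM with CCL5, against 44.1, 37.1 and 32.1 CPM in the controls (log2 fold change 0.78, SE 0.37). For Mitf the lowest library was ccl5 replicate 2, and the ccl5 and control ranges overlapped for both Mitf and Tfe3. Without ccl5 replicate 2 all 3 regulators rose, with adjusted p of 0.00221 for Tfeb, 0.0126 for Mitf and 0.0138 for Tfe3 by edgeR. That fit called 14.3% of all tested genes higher and 11.9% lower, and its 2 ccl5 libraries lacked the Y-linked reads of the controls. Tfec, the remaining family member and not one of the 39 genes, ran the other way at 26.4, 133 and 26.3 CPM with CCL5, against 70.01, 79.8 and 134 CPM in the controls; its log2 fold change was -0.61 over all libraries and -1.84 without ccl5 replicate 2 (adjusted p 0.0205 by edgeR), where it fell.

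The promoters of the genes were searched for the letters these factors are known to bind. RefSeq windows on GRCm38.p6, from 250 bases before the annotated start to 50 after it, were matched by symbol for 34 of the 39 genes. The core CACGTG, which reads the same on both strands, was found in 10 of the 34 genes (29.4%), against 8.09% of 27025 genes with such windows. The longer TCACGTGA, which holds the core, was found in 5 (14.7% against 1.12%), and the full palindrome with G before and C after it in 1 (2.94% against 0.37%). TCATGTG or its reverse complement CACATGA, a form bound by MITF, was found in 6 genes (17.6% against 4.31%). The median log2 fold change was 0.84 for the 10 genes with CACGTG (range 0.16 to 3.11) and 1.13 for the 23 tested genes whose windows lacked it (range -0.26 to 3.42). The genes with the core thus had the lower median, with overlapping ranges, and a role of the element in these levels was not tested.

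Of the windows below, 5 show how the element sits in different kinds of lysosome gene, and the Gpnmb window is shown because that gene, with Psap the highest per kb of exon in ccl5 replicates 1 and 3, has none of these letters in it. Capitals mark CACGTG, TCACGTGA, its palindrome with outer G and C, and TCATGTG. Lamp1 (chr8:13158911-13159210, plus strand) has 4 cores, starting 61, 45, 28 and 15 bases before the annotated start. Mcoln1 (chr8:3500269-3500568, plus strand), the gene of a lysosomal cation channel, has cores 71 and 45 bases before the start. Gla (chrX:134600956-134601255, minus strand), an X-linked hydrolase gene, has TCACGTGA starting 228 and 195 bases before the start and TCATGTG between them. Cln3 (chr7:126583187-126583486, minus strand) has the full palindrome 123 bases before the start. Atp6v0d1 (chr8:105566015-105566314, minus strand), the gene of a pump subunit, has TCACGTGA 4 bases before the start. The Gpnmb window lies at chr6:49036268-49036567, plus strand.
Mcoln1: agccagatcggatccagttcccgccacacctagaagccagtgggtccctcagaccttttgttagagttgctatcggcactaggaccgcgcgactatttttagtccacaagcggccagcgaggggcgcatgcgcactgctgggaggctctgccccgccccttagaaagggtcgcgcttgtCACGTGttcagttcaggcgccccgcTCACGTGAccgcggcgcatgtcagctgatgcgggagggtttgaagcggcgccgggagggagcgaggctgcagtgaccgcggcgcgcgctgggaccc
Gla: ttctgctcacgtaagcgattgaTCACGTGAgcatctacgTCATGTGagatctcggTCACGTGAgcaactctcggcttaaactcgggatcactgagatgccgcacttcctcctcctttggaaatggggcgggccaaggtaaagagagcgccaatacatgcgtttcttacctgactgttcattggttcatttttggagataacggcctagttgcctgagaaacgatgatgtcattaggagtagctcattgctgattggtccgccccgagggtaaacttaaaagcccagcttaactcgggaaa
Cln3: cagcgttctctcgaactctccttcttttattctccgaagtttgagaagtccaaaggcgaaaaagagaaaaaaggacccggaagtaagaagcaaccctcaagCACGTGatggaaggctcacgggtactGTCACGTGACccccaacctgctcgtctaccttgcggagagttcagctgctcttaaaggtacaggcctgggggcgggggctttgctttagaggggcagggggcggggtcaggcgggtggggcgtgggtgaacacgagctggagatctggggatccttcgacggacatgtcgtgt
Lamp1: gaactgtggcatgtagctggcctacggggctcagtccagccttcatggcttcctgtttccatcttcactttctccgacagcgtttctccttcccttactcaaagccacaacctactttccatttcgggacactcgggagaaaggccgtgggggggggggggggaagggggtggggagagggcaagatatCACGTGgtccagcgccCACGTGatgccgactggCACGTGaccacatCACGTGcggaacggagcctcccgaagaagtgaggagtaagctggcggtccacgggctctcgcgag
Atp6v0d1: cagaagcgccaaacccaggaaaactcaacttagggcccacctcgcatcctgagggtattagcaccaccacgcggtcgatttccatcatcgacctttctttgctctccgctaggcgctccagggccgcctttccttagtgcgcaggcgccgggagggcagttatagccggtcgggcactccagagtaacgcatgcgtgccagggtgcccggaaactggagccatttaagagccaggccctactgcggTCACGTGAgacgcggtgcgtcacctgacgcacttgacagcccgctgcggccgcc
Gpnmb: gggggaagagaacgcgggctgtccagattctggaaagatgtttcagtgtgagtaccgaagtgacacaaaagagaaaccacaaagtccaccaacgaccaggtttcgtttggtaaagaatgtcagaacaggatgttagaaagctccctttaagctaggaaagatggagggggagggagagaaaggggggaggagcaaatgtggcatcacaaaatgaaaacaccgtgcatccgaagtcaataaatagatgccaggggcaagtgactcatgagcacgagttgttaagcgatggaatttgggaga

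The log2 fold changes of the 9 membrane proteins ran from 0.16 for Lamp2 to 3.27 for Gpnmb, and 7 of the 9 rose without ccl5 replicate 2, in a fit that called 14.3% of all tested genes higher and 11.9% lower. Gpnmb (chr6:49036518-49058182 on mm10), which encodes a transmembrane glycoprotein of lysosomes and melanosomes, measured 21798, 1279 and 20441 CPM in ccl5 replicates 1 to 3, against 1613, 1655 and 1256 CPM in replicates 1 to 3 of the controls. It averaged 14506 ± 11475 CPM with CCL5 and 1508 ± 219 CPM in the controls (SD, n = 3 each), with ccl5 replicate 2 inside the control range. Its log2 fold change was 3.27 (SE 0.998; adjusted p 0.365 by edgeR) over 6 libraries and 3.81 (SE 0.203; adjusted p 0.00203) without ccl5 replicate 2. Melanocyte genes did not accompany it: Tyr, Dct and Pmel were at 0 to 1.65 CPM in every library.

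Npc1, which exports cholesterol from the lysosome, measured 453, 116 and 403 CPM with CCL5, against 69.1, 64.8 and 112 CPM in the controls (log2 fold change 1.98, SE 0.55). Its 3 ccl5 values were above every control, replicate 2 narrowly, and 3.15% of its exon bases are shared with another gene. Lamp1, a main protein of the lysosomal membrane, measured 2252, 827 and 2394 CPM with CCL5, against 704, 675 and 844 CPM in the controls (log2 fold change 1.2997, SE 0.43). Scarb2, whose product LIMP-2 sorts glucocerebrosidase to the lysosome, measured 255, 57.1 and 276 CPM with CCL5, against 64.6, 60.5 and 56.5 CPM in the controls (log2 fold change 1.69, SE 0.57). In Lamp1 and Scarb2 ccl5 replicate 2 fell among or next to the controls. Mcoln1 measured 131, 42.6 and 129 CPM with CCL5, against 50.3, 43.5 and 42.7 CPM in the controls (log2 fold change 1.15, SE 0.43).

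Cd68, macrosialin of phagocytes, measured 2032, 160.01 and 1986 CPM with CCL5, against 448, 512 and 156 CPM in the controls (log2 fold change 1.904, SE 0.96). Here the controls also split, with control replicates 1 and 2 well above control replicate 3, and ccl5 replicate 2 lay near control replicate 3. Cd63, a tetraspanin of late endosomes, varied far less, at 1057, 772 and 1134 CPM with CCL5, against 605, 606 and 798 CPM in the controls (log2 fold change 0.56, SE 0.24), and its adjusted p without ccl5 replicate 2 was 0.0456 by edgeR. Lamp2, a partner of Lamp1 with roles in autophagy, had 1217, 617 and 1460.5 CPM with CCL5, against 1136, 1153 and 666 CPM in the controls (log2 fold change 0.16, SE 0.395). Both ccl5 replicates 1 and 3 were above the highest control for Lamp2, and ccl5 replicate 2 was the lowest of the 6. Cln3, mutated in juvenile Batten disease, ranged over 41.8 to 66.9 CPM with CCL5 and 39.4 to 57.7 CPM in the controls (log2 fold change 0.17, SE 0.24).

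**Figure D3:**
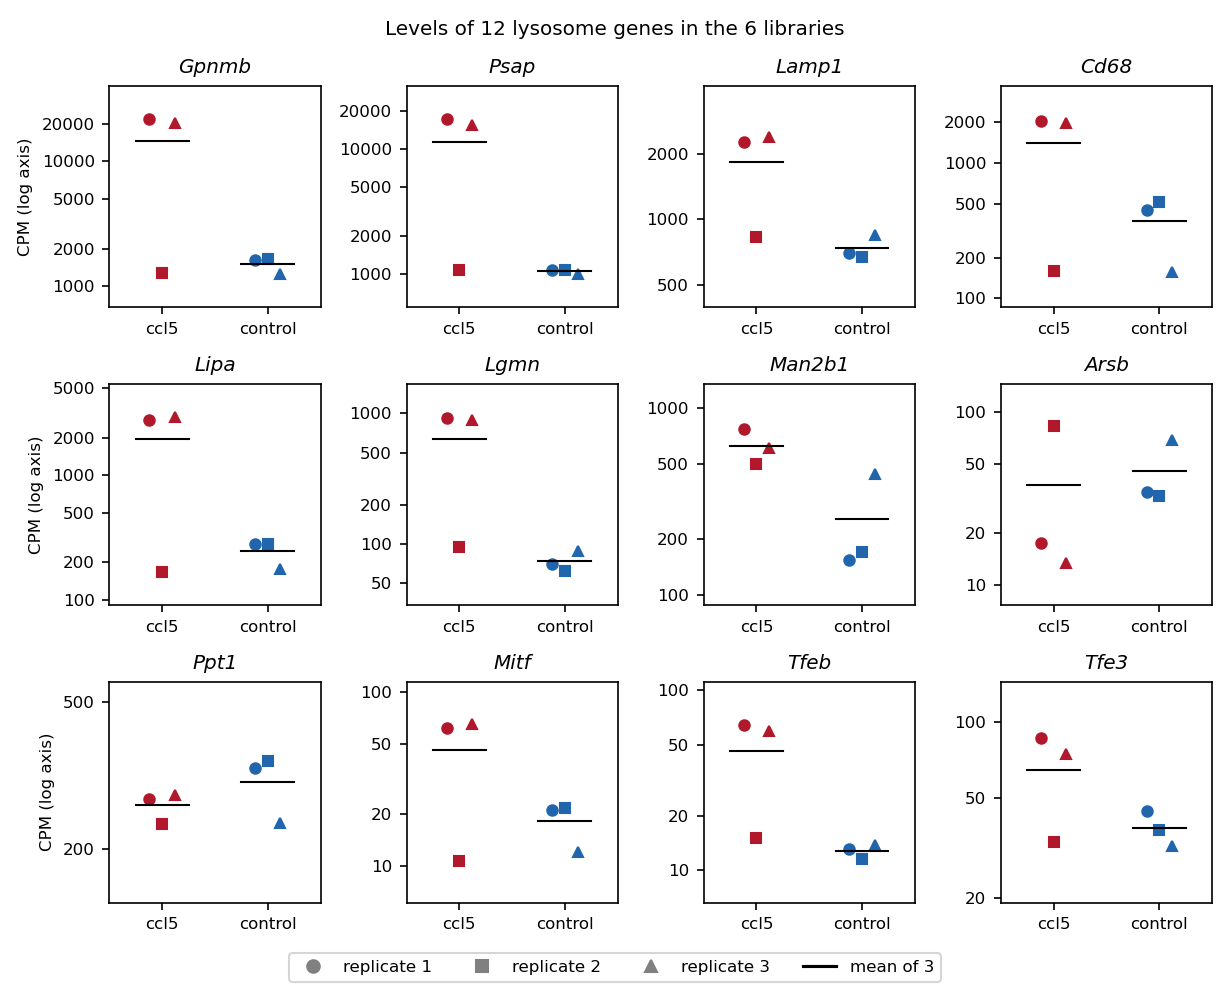
Levels of 12 lysosome genes in CPM on a log axis, ccl5 left of control, 1 point per library with the mean of 3 as a line. In Gpnmb, Psap, Lipa and Lgmn the circle and triangle of the ccl5 group stand far above the other 4 points; in Man2b1 all 3 ccl5 points are above the controls; in Arsb the order is turned.

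All 4 soluble cofactors rose without ccl5 replicate 2, where 14.3% of all tested genes were called higher. Psap (chr10:60277628-60302600 on mm10) encodes prosaposin, from which the saposins that present sphingolipids to hydrolases are cut. It measured 17253, 1078 and 15481 CPM in ccl5 replicates 1 to 3, against 1081, 1083 and 1001 CPM in replicates 1 to 3 of the controls, a log2 fold change of 3.42 (SE 0.98), the highest of the 38. The ccl5 value of replicate 2 lay within the narrow control range, and adjusted p was 0.365 over 6 libraries and 0.00202 without that replicate by edgeR. Creg1, a soluble lysosomal glycoprotein, measured 1886, 364 and 2089 CPM with CCL5, against 402, 367 and 403 CPM in the controls (log2 fold change 1.89, SE 0.63). Npc2, which hands cholesterol to NPC1, measured 1666, 494 and 1910.01 CPM with CCL5, against 618, 602 and 508 CPM in the controls (log2 fold change 1.24, SE 0.503). Grn, the progranulin gene, measured 1189, 345 and 953 CPM with CCL5, against 417, 426 and 290.4 CPM in the controls (log2 fold change 1.13, SE 0.47). In each of these 3 genes ccl5 replicate 2 was below at least 1 control.

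Of the 15 hydrolases, 13 had a positive fold change, 5 had no overlap between groups, and 10 rose without ccl5 replicate 2. Over all tested genes 8.27% lay above the controls without overlap, and 14.3% were called higher in the fit without that library. Lipa (chr19:34492316-34527474), the acid lipase that releases cholesterol and fatty acids from lipoproteins, measured 2794, 168 and 2935 CPM in ccl5 replicates 1 to 3, against 279, 282 and 176 CPM in replicates 1 to 3 of the controls (log2 fold change 2.9996, SE 0.995). Its ccl5 replicate 2 was the lowest library. Lgmn (chr12:102394098-102439697), which encodes the asparaginyl endopeptidase legumain, had 921, 94.6 and 887 CPM in ccl5 replicates 1 to 3, against 70.1, 62.1 and 88.5 CPM in replicates 1 to 3 of the controls (log2 fold change 3.11, SE 0.83). For Lgmn replicate 2 stayed above all controls, and the gene had the smallest unadjusted p of the 38, 0.00983 by edgeR (adjusted p 0.365). Hexa, a subunit of the ganglioside-degrading hexosaminidase, measured 1445, 494 and 1528 CPM with CCL5, against 367, 344 and 499 CPM in the controls (log2 fold change 1.52, SE 0.46), with ccl5 replicate 2 just under control replicate 3.

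Smaller differences in the same pattern were seen for Gla, the alpha-galactosidase lost in Fabry disease, which measured 282, 77.99 and 328 CPM with CCL5, against 98.3, 88.2 and 82.5 CPM in the controls (log2 fold change 1.35, SE 0.52). Gusb, beta-glucuronidase, measured 375, 193 and 329 CPM with CCL5, against 159, 159.7 and 176 CPM in the controls (log2 fold change 0.86, SE 0.27). Gaa, the acid glucosidase lost in Pompe disease, measured 143, 78.6 and 105 CPM with CCL5, against 55.1, 56.7 and 69.3 CPM in the controls (log2 fold change 0.85, SE 0.25). The groups did not overlap for Gusb and Gaa, and did for Gla. Tpp1, Smpd1, Glb1 and Asah1, which encode a tripeptidyl peptidase, acid sphingomyelinase, beta-galactosidase and acid ceramidase, had log2 fold changes of 0.91, 0.82, 0.78 and 0.61, and all 4 rose in the fit without ccl5 replicate 2. Of the exon bases of Glb1, 6.42% are shared with Tmppe, and reads there cannot be assigned to either gene.

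Man2b1, the lysosomal alpha-mannosidase, measured 773, 502 and 606 CPM with CCL5, against 153, 169.8 and 442 CPM in the controls (log2 fold change 1.297, SE 0.47). Its order of libraries was that of Gaa and Gusb. Control replicate 3 was close to ccl5 replicate 2, and control replicates 1 and 2 were the low libraries. Without control replicate 3 it passed the test (adjusted p 0.0451 by edgeR) and no other of the 38 genes did; in that fit 0.541% of all genes were called higher and 1.34% lower. Neu1, a sialidase, had 246, 229.9 and 238 CPM with CCL5, against 159.8, 135 and 218 CPM in the controls (log2 fold change 0.48, SE 0.21), with the same low pair. Arsa, arylsulfatase A, varied little, from 41.1 to 47.0 CPM with CCL5 and 38.0 to 42.2 CPM in the controls (log2 fold change 0.16, SE 0.14). Ppt1, a thioesterase, and Arsb, arylsulfatase B, had the 2 negative fold changes. Ppt1 measured 273, 234 and 281 CPM with CCL5, against 330.3, 347 and 236 CPM in the controls (log2 fold change -0.21, SE 0.21). Arsb measured 17.6, 83.2 and 13.5 CPM with CCL5, against 34.4, 32.9 and 69.4 CPM in the controls (log2 fold change -0.26, SE 0.76). In Arsb ccl5 replicates 1 and 3 were the lowest libraries and ccl5 replicate 2 the highest, so the group difference is the mean of opposite values; without replicate 2 its log2 fold change was -1.55 (adjusted p 0.051 by edgeR).

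The proton pump has a membrane-embedded V0 part that carries protons and a cytosolic V1 part that splits ATP. Of 7 tested subunits among the 39 genes, Atp6v0d1 alone had no overlap between groups, and 5 of 7 rose without ccl5 replicate 2. The share without overlap, 1 of 7, was near the 8.27% of all tested genes, of which 14.3% were called higher without ccl5 replicate 2. Atp6v0d1, the ubiquitous form of V0 subunit d, measured 259, 155 and 240.5 CPM with CCL5, against 109.96, 109 and 150.3 CPM in the controls (log2 fold change 0.83, SE 0.26). Atp6v0d2, the form known from osteoclasts and macrophages, measured 165, 10.1 and 211 CPM with CCL5, against 25.9, 27.99 and 14.4 CPM in the controls (log2 fold change 2.501, SE 1.01). It was lowest in ccl5 replicate 2, and its ratio of ccl5 replicate 3 to replicate 2, 20.8, was the largest of the 38 genes. Per kb of exon the d2 level was 41.1%, 4.21% and 56.7% of the d1 level in ccl5 replicates 1 to 3, against 15.2%, 16.5% and 6.17% in control replicates 1 to 3. The share was thus highest in ccl5 replicates 1 and 3 and lowest in ccl5 replicate 2 and control replicate 3.

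Atp6v0a1 encodes 1 of the a subunits that set where the pump goes. It measured 146, 33.7 and 135 CPM with CCL5, against 101, 108 and 37.2 CPM in the controls (log2 fold change 0.35, SE 0.64), and control replicates 1 and 2 were well above control replicate 3. Tcirg1, the a3 form of phagocytes and osteoclasts and not one of the 39 genes, measured 675, 323 and 685 CPM with CCL5, against 302, 275 and 312 CPM in the controls (log2 fold change 0.92, SE 0.32), without overlap between the groups. Per kb, the a1 level was 17.8%, 8.56% and 16.1% of the Tcirg1 level with CCL5, against 27.5%, 32.2% and 9.80% in the controls. In every library Tcirg1 was therefore the higher of these a subunit genes.

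In the V1 part, Atp6v1a, the catalytic subunit, measured 969, 332 and 999.9 CPM with CCL5, against 492, 511 and 322 CPM in the controls (log2 fold change 0.797, SE 0.46). Atp6v1b2, its partner in the ATP-splitting ring, had 782, 296 and 814 CPM with CCL5, against 441, 456 and 286 CPM in the controls (log2 fold change 0.68, SE 0.43). Both had ccl5 replicate 2 and control replicate 3 as the low pair. Atp6v1h, a regulatory subunit, had 87.8 to 145 CPM with CCL5 and 94.4 to 135 CPM in the controls (log2 fold change 0.0069, SE 0.25). The accessory subunit Atp6ap1 measured 333, 138 and 327 CPM with CCL5, against 141, 142 and 130.04 CPM in the controls (log2 fold change 0.95, SE 0.35). Atp6v0c, the proton-carrying ring subunit, was listed at 0 in all 6 libraries. Of its annotated exon bases, 97% (1117) overlap the pseudogene Atp6v0c-ps2, which was also listed at 0, so no level can be given for it.

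**Figure D4:**
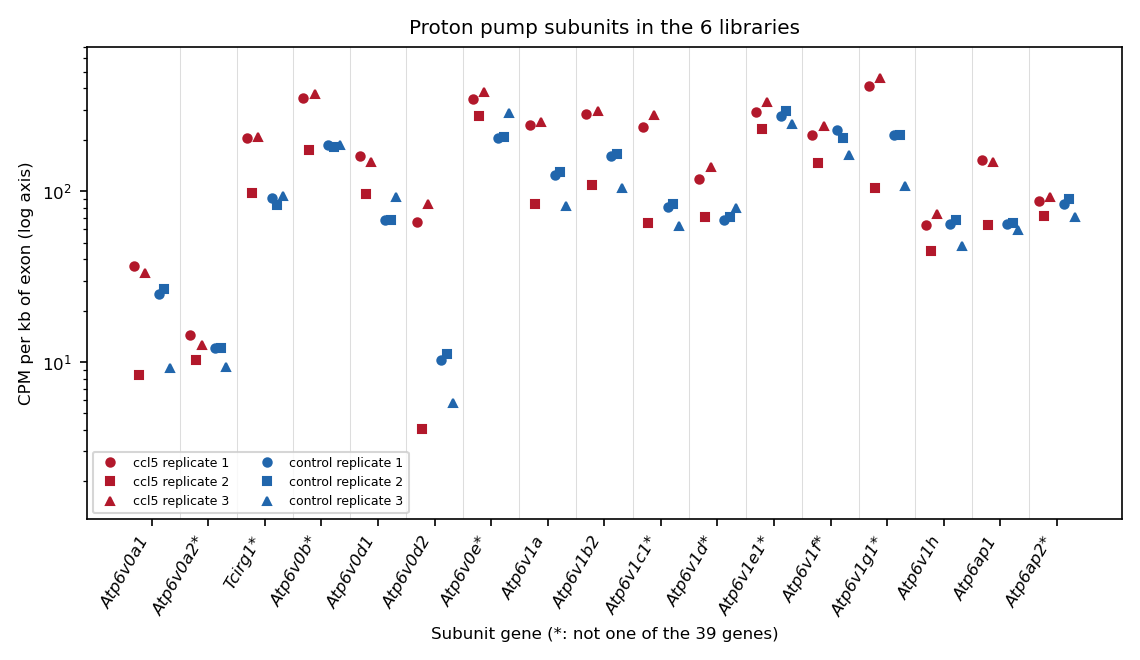
Levels of 17 proton pump subunit genes in CPM per kb of exon on a log axis, ccl5 points left of control points for each gene; asterisks mark genes outside the 39. Atp6v0d2 spans the widest range, from 4.05 CPM per kb in ccl5 replicate 2 to 84.3 in ccl5 replicate 3.

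Further lysosome genes were counted in the same way. For each list the counts stand beside 49% of all tested genes with a positive fold change, 8.27% higher without overlap, and 14.3% called higher and 11.9% lower without ccl5 replicate 2. Of 31 other hydrolases and their helpers Rnaset2a was listed at 0 and 29 were tested; of these, 27 had a positive fold change, 11 had no overlap with all ccl5 libraries higher, and 22 were called higher without ccl5 replicate 2 (median over 6 libraries 1.14). The 3 with the smallest p were Dpp7, a dipeptidyl peptidase (log2 fold change 1.56, SE 0.41), Ids, the iduronate sulfatase lost in Hunter syndrome (log2 fold change 1.94, SE 0.54), and Plbd2 (log2 fold change 1.14, SE 0.33). Of 27 further membrane proteins, 23 were positive, 8 did not overlap, and 16 were called higher and 2 lower without ccl5 replicate 2 (median 0.74). The nucleoside carrier Slc29a3 (log2 fold change 1.696, SE 0.46), Mfsd12 (log2 fold change 2.302, SE 0.65) and the peptide and histidine carrier Slc15a4 (log2 fold change 1.41, SE 0.41) led this list, and the 2 called lower were Abca2 and Cd164, named after their values were seen. Of 12 further pump subunits 11 were positive, 1 did not overlap, a share near the 8.27% of all genes, and 6 were called higher in that fit (median 0.55); beside Tcirg1, Atp6v1c1 (log2 fold change 1.36, SE 0.53) and Atp6v0e (log2 fold change 0.52, SE 0.22) had the smallest p.

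Genes for delivery to lysosomes and for autophagy had medians closer to 0. The shares over all tested genes were 8.27% higher without overlap and, without ccl5 replicate 2, 14.3% called higher and 11.9% lower. Of 28 delivery genes (sorting receptors, adaptors and tethers) 22 were positive, 6 did not overlap and 14 were called higher without ccl5 replicate 2 (median 0.48). The tether subunits Vps18 (log2 fold change 0.99, SE 0.2998) and Vps33a (log2 fold change 0.52, SE 0.17) and the adaptor Gga2 (log2 fold change 0.74, SE 0.26) had the smallest p. Of 25 autophagy genes 21 were positive, 3 did not overlap, near the share of all genes, and 11 were called higher and 1 lower (median 0.47), with Map1lc3a (log2 fold change 1.21, SE 0.36), the receptor Optn (log2 fold change 2.32, SE 0.71) and the kinase Ulk1 (log2 fold change 1.25, SE 0.398) in front.

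Of 24 genes of mTORC1 signalling at the lysosome, 21 were in the table and 20 were tested. Of these, 16 were positive, 2 did not overlap, near the 8.27% of all tested genes, and 9 were called higher and 1 lower without ccl5 replicate 2, where 14.3% of all genes were called higher and 11.9% lower (median 0.32). Rragd, a small GTPase that brings these factors to mTORC1, measured 58.4, 4.15 and 63.3 CPM in ccl5 replicates 1 to 3, against 2.85, 2.29 and 5.12 CPM in replicates 1 to 3 of the controls (log2 fold change 3.61, SE 1.01). Fnip2, a partner of folliculin in the complex that acts on Rag GTPases, measured 1179, 85.99 and 1219 CPM with CCL5, against 138, 125 and 95.3 CPM in the controls (log2 fold change 2.795, SE 0.92). Rragc, a close relative of Rragd, had 275, 95.6 and 307 CPM with CCL5, against 96.7, 93.5 and 89.2 CPM in the controls (log2 fold change 1.28, SE 0.43). All 3 rose without ccl5 replicate 2, with adjusted p of 0.00414, 0.00213 and 0.00261 by edgeR, while ccl5 replicate 2 was within or near the control range in each. None of the genes in these 6 lists passed the test over all 6 libraries.

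Single libraries set side by side gave the clearest order, without a replicate check. In 34 of 38 genes ccl5 replicates 1 and 3 were the highest pair, as they were for 30.8% of all tested genes (3749). Between replicate 3 and replicate 2 of the ccl5 group, both labelled primary transplants, the ratio had a median of 1.499 on the log2 scale and ran from 0.162 for Arsb to 20.8 for Atp6v0d2. It was over 2 in 26 of 38 genes, against 17.9% of all tested genes. In primary transplants only, 2 ccl5 against 1 control, 21 of the 38 lay above the control and 0 below, against 24.1% and 26.2% of all genes, and edgeR called 0 of them, with 0 of all genes at an unadjusted p under 0.05. Ccl5 replicates 1 and 3, labelled as a tertiary and a primary transplant, differed by ratios of only 0.783 to 1.37.

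Between ccl5 replicate 2 and control replicate 3, a treated and a control library that both carried Y-linked reads and the primary transplant label, the ratio ran from 0.706 for Atp6v0d2 to 1.199 for Arsb. Its median was 0.05 on the log2 scale, and in 0 of 38 genes was it beyond 1.5-fold in either direction, beside 2.01% of all tested genes above that limit and 2.28% below. The controls themselves differed by more: control replicate 1 over control replicate 3 ran from 0.347 for Man2b1 to 2.86 for Cd68. With the 4 libraries that had Y-linked reads, 1 ccl5 and 3 control, the median log2 fold change of the 38 genes was -0.10, 16 were positive and 22 negative. The ccl5 library lay above all controls in 10 and below all in 12, as it did in 26.6% and 26.7% of all genes. EdgeR called 0 of them and 0% of all genes in either direction. At an unadjusted p under 0.05 there were 0 of the 38, and 13 genes higher and 11 lower of all 13018 tested. In that fit the lone ccl5 library is assumed to vary like the controls.

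**Figure D5:**
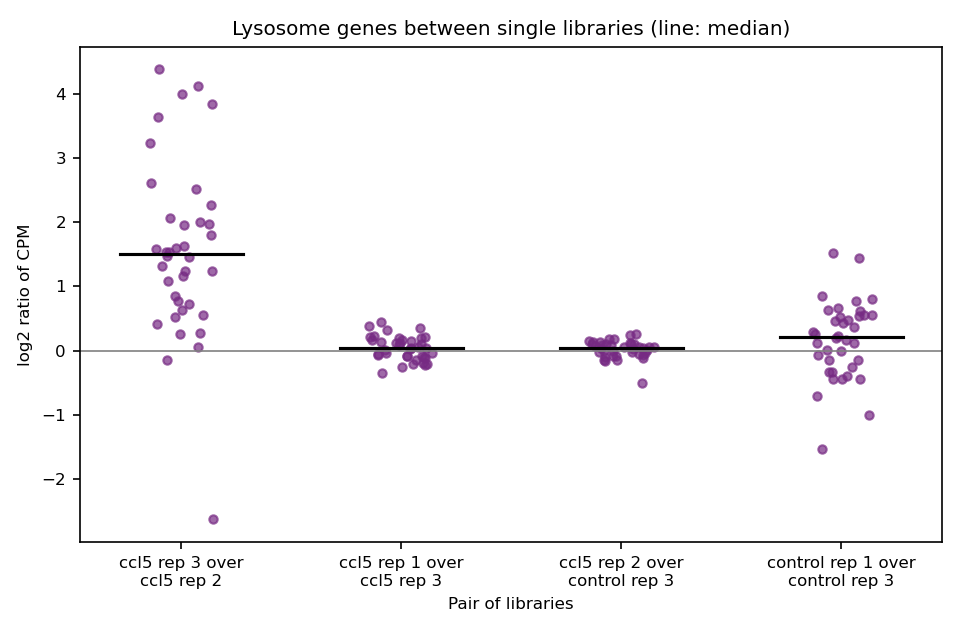
Log2 ratios of CPM for 38 lysosome genes between 4 pairs of single libraries, 1 point per gene, with the median as a line. Points for ccl5 replicate 3 over replicate 2 lie mostly above 0, while those for ccl5 replicate 2 over control replicate 3 stay between -0.50 and 0.26.

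Markers of blood lineages also differed between the libraries. Of 20 monocyte and macrophage genes 19 were tested, 14 had a positive fold change and Timd4 was at 0; the list summed to 3158, 2147 and 3141 CPM with CCL5, against 3640.3, 3629 and 2289 CPM in the controls. In 5 of them all ccl5 libraries lay above the controls and in 1 below, against 8.27% and 7.49% of all tested genes. Within the list, Csf1r, the receptor that macrophages need, measured 406, 81.96 and 369.97 CPM with CCL5, against 111, 107 and 77.6 CPM in the controls. Ly6c2, a marker of inflammatory monocytes, measured 121, 1213 and 107 CPM with CCL5, against 1500.4, 1521 and 1278 CPM in the controls. The 5 genes with a negative fold change were Ly6c2, Cd14, Msr1, Ccr2 and Cd163. Cd14 measured 31.3, 17.6 and 29.9 CPM with CCL5, against 195, 188 and 18.4 CPM in the controls. The 12 neutrophil and granule genes, 5 positive and 7 negative, summed to 1048, 15929.7 and 1023 CPM with CCL5, against 2999, 3049 and 15705 CPM in the controls. Their sum was lowest in the libraries where the lysosome genes were highest, and highest in ccl5 replicate 2 and control replicate 3. Ngp followed the sum, at 1.35, 4905 and 3.28 CPM with CCL5, against 28.8, 21.1 and 4713 CPM in the controls. Mmp8 and Csf3r instead were highest in ccl5 replicates 1 and 3. Mmp8 measured 465, 250 and 533 CPM with CCL5, against 44.1, 35.6 and 286 CPM in the controls. Csf3r measured 233, 193 and 233 CPM with CCL5, against 68.3, 63.2 and 200 CPM in the controls.

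The 8 osteoclast genes, of which 4 were tested, summed to 128, 44.8 and 120.3 CPM with CCL5, against 59.5, 64.6 and 41.5 CPM in the controls, with the calcitonin receptor gene Calcr at 0 to 0.0533 CPM and Oscar at 0 to 0.213 CPM in every library. Of the list, Ctsk, Nfatc1 and Tnfrsf11a were highest in ccl5 replicates 1 and 3. Ctsk measured 28.6, 3.91 and 35.2 CPM with CCL5, against 1.01, 1.23 and 4.46 CPM in the controls. Nfatc1 measured 70.0, 30.8 and 55.4 CPM with CCL5, against 16.7, 17.6 and 26.7 CPM in the controls. Mmp9 was lowest in ccl5 replicates 1 and 3, and Dcstamp and Ocstamp, genes of osteoclast fusion, ran the other way. Dcstamp measured 0.0712, 0 and 0.182 CPM with CCL5, against 23.4, 28.1 and 0 CPM in the controls, and Ocstamp 0, 0 and 0.091 CPM with CCL5, against 0.951, 1.28 and 0 CPM in the controls. B cell genes summed to 49.9, 14.7 and 45.96 CPM with CCL5, against 14.3, 17.01 and 15.5 CPM in the controls. Sums of T and NK cell genes were 0.427, 2.26 and 0.728 CPM with CCL5, against 1.59, 1.01 and 3.14 CPM in the controls, with Ncr1 and Gzmb at 0. For erythroid genes they were 1.35, 2.02 and 1.18 CPM with CCL5, against 1.14, 1.23 and 1.82 CPM in the controls, with the globin genes listed at 0. Mast cell and melanocyte genes summed to 4.99, 12.03 and 3.82 CPM with CCL5, against 7.48, 9.01 and 17.5 CPM in the controls, and genes of stroma and endothelium to 71.2, 90.02 and 61.3 CPM with CCL5, against 116, 129 and 93.8 CPM in the controls. Genes known from MLL leukemia summed to 1097, 1266 and 1145 CPM with CCL5, against 1259.7, 1286 and 1348 CPM in the controls. Ptprc, which white blood cells share, made up 706, 522 and 783 CPM of these sums with CCL5, and 641, 639.6 and 588 CPM in the controls. Without it the list summed to 391, 744 and 362 CPM with CCL5, against 619, 646 and 760.1 CPM in the controls, and was lowest in ccl5 replicates 1 and 3. Of the 10 genes, 9 had more than 3 counts in every library, and Kit did not. The part of these marker differences in the levels of the lysosome genes was not tested.

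Compared per kb of exon, the leading gene was not the same in all libraries. In ccl5 replicate 1 Psap, at 6313 CPM per kb, and Gpnmb, at 5739 CPM per kb, were the highest of the set. In ccl5 replicate 2 and control replicate 3 the highest was Cd63, at 748 and 773 CPM per kb, as it also was in control replicates 1 and 2. The lowest tested gene was Arsb in ccl5 replicates 1 and 3, Tfeb in control replicate 2 and Mitf in the other 3 libraries.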

How the data were processed

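Polyadenylated RNA of 6 mouse leukemia libraries was read as single ends of 100 bases, per the labels' protocols. The deposited table holds raw counts per gene, made with featureCounts 1.5.1 from primary alignments with UCSC mm10 genes and no strand option, per the file headers, so a read in a stretch shared by overlapping or antisense genes has no certain source. The submitters' processing notes also list TopHat, Bowtie, Trimmomatic and DESeq2, with no version. Another deposited column gives exon length, used for CPM per kb. Symbols and coordinates are those of the table, counted from 1.

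Differences, ccl5 over control, were tested with the two-sided quasi-likelihood test of edgeR 4.0.16 (R 4.3.3) on the counts, with TMM scaling, filterByExpr at a minimum count of 10, no covariate, Benjamini-Hochberg adjustment over all 12174 tested genes and a threshold of 0.05. Each standard error (SE) follows from the fold change and the F statistic. Alternatives were DESeq2 1.42.0, limma 3.58.1 with voom and sample quality weights, DESeq2 size factors, other filters, leaving out each library, primary transplants only and libraries with Y-linked reads only. Plain library size was added after seeing the data. The fit was tested on simulated data. The 39 genes, the lists of other genes and the rule for named genes were chosen with earlier results of these data known. All 39 genes are accounted for; per-library values follow a rule that took regulators, the d subunits, Gpnmb, the smallest p in each direction and called genes, and from each further list the 3 smallest p. Counts differed by more than sampling noise in every compared pair of libraries, so neither library of such a pair was a copy of the other. This cannot tell whether a pair came from the same RNA sample. Depth was 13421100 to 18445095 counts, where 3 counts equal at most 0.273 CPM.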

Additional observations from a re-analysis of the deposited data

How the results depend on the processing

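With DESeq2 size factors, no filter or one that asked for CPM over 1 in 3 libraries, each of the 38 genes kept its direction and stayed short of the threshold of 0.05. DESeq2's Wald test called 5 of them higher and, over all genes, 112 higher and 79 lower; limma-voom with quality weights called 32 higher and 2 lower, over all genes 4015 and 4082. Leaving out 1 library gave 0 to 29 of the 38 called higher, 0 to 1802 genes called higher and 0 to 1497 lower, with ccl5 replicate 2 giving the high ends; genes of the 38 without overlap numbered 8 to 34 higher and 0 to 1 lower, and their median log2 fold change was 0.74 to 1.23. In primary transplants only, 21 of the 38 did not overlap (all genes 24.1%), 0 were called, and Ppt1 was 0.11. In libraries with Y-linked reads only, where 12 of the 38 lay below the controls (all genes 26.7%), the median was -0.101, the list medians were -0.039 for other hydrolases, -0.14 for other membrane proteins and -0.12 for other pump subunits, and these log2 fold changes turned sign: Gpnmb -0.24, Lamp2 -0.68, Cd68 -1.22, Glb1 -0.31, Npc2 -0.22, Lipa -0.55, Grn -0.13, Asah1 -0.49, Gla -0.204, Arsb 0.87, Scarb2 -0.087, Creg1 -0.104, Cln3 -0.26, Mcoln1 -0.099, Atp6v0a1 -1.29, Atp6v0d2 -1.17, Atp6v1a -0.41, Atp6v1b2 -0.41, Atp6v1h -0.44, Atp6ap1 -0.00024, Mitf -0.76, Tfe3 -0.18. Plain library size moved the median of all genes to -0.17 and turned Lamp2 (-0.075), Arsa (-0.0103), Cln3 (-0.0301) and Atp6v1h (-0.1999). Leaving out 1 library gave ranges that cross 0 for Lamp2 (-0.092 to 0.45), Arsb (-1.55 to 0.19) and Atp6v1h (-0.15 to 0.19). The cause of these changes was not tested. No paired analysis was run, because the ccl5 titles carry no replicate numbers to match those of the controls. The libraries that share a source name prefix, ccl5 replicates 2 and 3 and control replicate 3, were fitted alone as the primary transplants. A gene with 3 counts stands at 0.16 to 0.273 CPM, so levels below that, such as that of Calcr, were not detectable at this depth.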
